A study of Mus musculus with 8 samples.

Results

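The insulin-like growth factor (IGF) family was followed in mouse tendon stem cells (TSCs) through 10 genes, the ligands Igf1 and Igf2, the receptors Igf1r and Igf2r, and the binding proteins Igfbp2, Igfbp3, Igfbp4, Igfbp5, Igfbp6 and Igfbp7. Their rows were taken from the 19301 genes of the expression table by exact match of the gene symbol, and all 10 were found. The family itself was chosen with earlier results of these data known. Of the 19301 genes, 11710 passed the filter on low values, and all 10 family genes were among them, Igf2 by the smallest margin.

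The study asked how a medium that imitates the raised glucose and fat of diabetes changes TSCs. Primary TSCs were described in the methods as cells grown out of collagenase-digested mouse patellar tendon. They were cultured for 4 days in high fat, high glucose medium with palmitic acid (HFHG) or in low glucose medium with DMSO (LG). The labels give the cell type and the medium only, and no genetic change or osteogenic medium was named for either group. Each group had 4 libraries of polyadenylated RNA, called biological replicates by the study. The sources used here do not say whether they came from separate animals, so the p-values measure the spread between these samples, which may be technical. The media differ in glucose and in palmitic acid together, and the effects of these cannot be told apart. DMSO was named for LG only, and the solvent of the palmitic acid is not given in the sources used here. Any effect of solvent cannot be told apart either.

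IGF1 and IGF2 are secreted growth factors that act mainly through the tyrosine kinase receptor encoded by Igf1r, whereas the product of Igf2r takes IGF2 and mannose 6-phosphate tagged enzymes into lysosomes without growth signalling. The binding proteins encoded by Igfbp2 to Igfbp6 hold the ligands with high affinity outside the cell and set how much of them can reach the receptor, and proteases release the ligands again. IGFBP7 binds IGFs only weakly and is better known as an extracellular protein of its own. In tendon, IGF1 is known for promoting cell growth and collagen synthesis during loading and repair.

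The values were FPKM, in which fragments are scaled to gene length and library size. On this scale levels of different genes can be compared as far as the gene lengths used hold. The reads recovered behind the FPKM came to between 34308108 and 37362725 per library. Of the 12 tendon and stromal markers listed for the check of the cell type, all 12 passed the filter, and 9 of them were higher and 2 lower in HFHG. Among all genes tested, 34.0% were higher and 30.8% lower. Col1a1 (log2 fold change 1.36) and Thbs4 (1.14) rose most, and Mkx (-0.35) and Cd44 (-0.13) fell. The summed FPKM of the list lay between 2585 and 2633 in HFHG and between 1696 and 1725 in LG. Col1a1, Dcn and Ly6a made up most of that sum. The tendon genes Scx (2.27 FPKM in HFHG, 1.45 FPKM in LG) and Tnmd (1.10 FPKM in HFHG, 0.614 FPKM in LG) were low. Macrophage markers were also present, with 7 of 8 past the filter, Lyz2 at 1637 FPKM in HFHG and 1765 FPKM in LG, and Cd163 near 0. The summed FPKM of the macrophage list lay between 1709 and 1759 in HFHG and between 1870 and 1950 in LG, and 6 of the 7 tested members were lower in HFHG, where 30.8% of all genes tested were lower. Lyz2, which makes up most of that sum, had a log2 fold change of -0.11, while C1qa (-0.97), C1qb (-0.68) and Adgre1 (-0.52) fell further. The part of either marker list in the differences below was not tested, and in bulk RNA fewer cells of a type cannot be told apart from less RNA per cell. The endothelial, muscle and adipocyte lists each summed to at most 4.36 FPKM in any library. LG replicate 4 stood apart from the other LG libraries. Its genes of at least 8000 bases were lower than in the other LG libraries, by a median of -0.12 on the log2 scale, and its genes under 2000 bases were higher, by a median of 0.08. For the IGF genes that were shifted in LG replicate 4, values without it are given as well. The difference between the media also went with gene length. The median log2 fold change of tested genes was -0.07 under 2000 bases and 0.11 at 8000 bases or more. Without LG replicate 4 these medians were -0.05 and 0.07. The part of gene length in the changes below, of which the small ones are of like size, was not tested.

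Igfbp4 and Igfbp3, the binding protein genes that moved furthest in opposite directions, are shown by the sequence before their start. Both lie on chromosome 11, on opposite strands and far apart. The windows hold the 250 bases before the RefSeq start in the build GRCm38.p6, at chr11:99040994-99041243 on the plus strand for Igfbp4 and at chr11:7213924-7214173 on the minus strand for Igfbp3. They are written 5′ to 3′ along the gene, and the capitals mark the TATA box, searched as TATAAA.
Igfbp4: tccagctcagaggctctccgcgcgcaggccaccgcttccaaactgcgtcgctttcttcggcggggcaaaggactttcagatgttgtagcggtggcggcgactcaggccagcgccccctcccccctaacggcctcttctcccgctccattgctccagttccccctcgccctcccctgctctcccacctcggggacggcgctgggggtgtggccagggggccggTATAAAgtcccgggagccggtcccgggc
Igfbp3: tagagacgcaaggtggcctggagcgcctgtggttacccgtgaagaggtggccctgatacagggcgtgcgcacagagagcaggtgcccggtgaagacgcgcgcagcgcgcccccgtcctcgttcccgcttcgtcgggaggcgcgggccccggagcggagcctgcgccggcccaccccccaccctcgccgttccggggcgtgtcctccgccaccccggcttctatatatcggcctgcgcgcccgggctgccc
The Igfbp4 window held TATAAA beginning 28 bases before the start. Of 32851 promoters in the same RefSeq table, 12.4% held TATAAA on either strand. The Igfbp3 window held no TATAAA, but near its end stand the letters tatatat, a similar run that this search does not count. The windows are therefore not set apart as with and without a TATA box. The other letters searched on both strands were GGGCGG, named the GC box and held by 32.7% of all promoters, CCAAT (33.8%), the E-box CACGTG (6.02%) and the FoxO site TGTTTAC (3.17%), and none stood in either window. Both windows were rich in G and C, at 69.2% for Igfbp4 and 73.2% for Igfbp3. A match describes letters only, and the absence of one says no more than that these letters are not in this window.

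The order of the levels changed between the media, as the plot of FPKM by library shows. In LG, Igfbp7 had the highest FPKM, followed by Igfbp6, Igfbp3, Igf2r, Igfbp4, Igf1r, Igfbp5, Igfbp2, Igf1 and Igf2, and the only neighbours in this order whose libraries overlapped were Igf2r and Igfbp4. In HFHG, the order was Igfbp7, Igfbp4, Igfbp6, Igf2r, Igfbp3, Igf1r, Igfbp5, Igf1, Igfbp2 and Igf2, and the only overlapping neighbours were Igf1 and Igfbp2. By mean FPKM, Igfbp4 thus stood below Igfbp6, Igfbp3 and Igf2r in LG and above all of them in HFHG. In LG replicate 4, Igfbp4 (33.9 FPKM) lay above Igf2r (32.5 FPKM). The recovered gene lengths differed from the union exon lengths of GENCODE M21. They were 3242 against 4416 bases for Igfbp4, 4022 against 3130 for Igfbp3 and 1289 against 1112 for Igfbp6. The order therefore rests on the lengths used, and it was not tested with others.

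**Figure D1:**
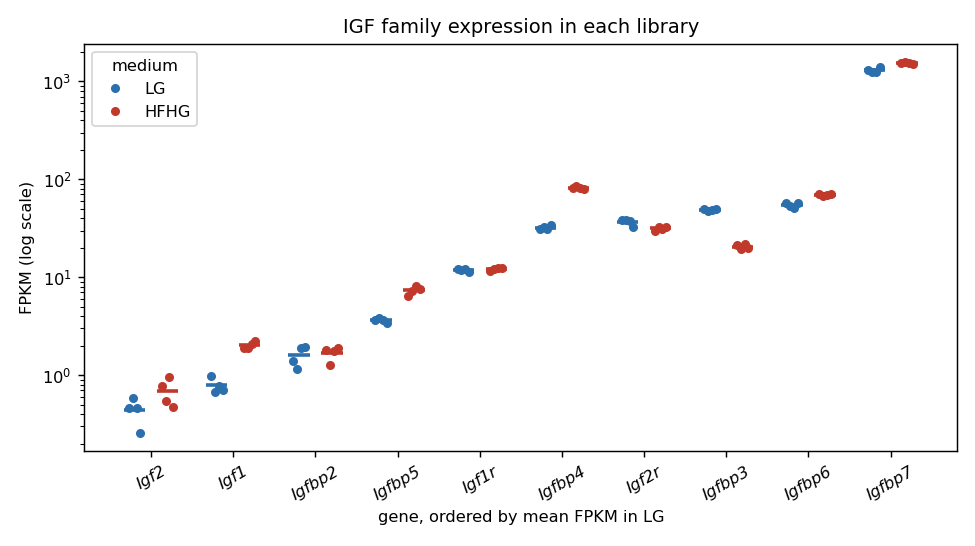
FPKM of the 10 IGF family genes on a log axis, with 4 LG (blue) and 4 HFHG (red) libraries per gene as points and the group mean as a bar. The colours separate most widely at Igf1, Igfbp3, Igfbp4 and Igfbp5. They mix at Igf2, Igf1r and Igfbp2, and at Igf2r through LG replicate 4.

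At an adjusted p below 0.05 (limma on log2(FPKM + 0.1), two-sided, Benjamini-Hochberg over 11710 genes), 5 of the 10 genes were higher in HFHG and 2 were lower. Over all genes tested, 34.0% were higher and 30.8% lower, so the number of family genes called was near that of the background. Igf1, Igfbp4, Igfbp5, Igfbp6 and Igfbp7 made up the higher genes, and Igfbp3 and Igf2r the lower ones. Past a log2 fold change of 1 there were 2 higher genes, Igf1 and Igfbp4, against 3.68% of all genes, and 1 lower gene, Igfbp3, against 1.63%. The HFHG and LG libraries did not overlap for 6 of the 10 genes, against 59.2% of all genes. The median size of the change, regardless of sign, was 0.45 on the log2 scale for the family and 0.25 for all genes tested, and the signed medians were 0.30 and 0.02. The family was chosen with earlier results of these data known, so its comparisons with all genes are a description.

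**Figure D2:**
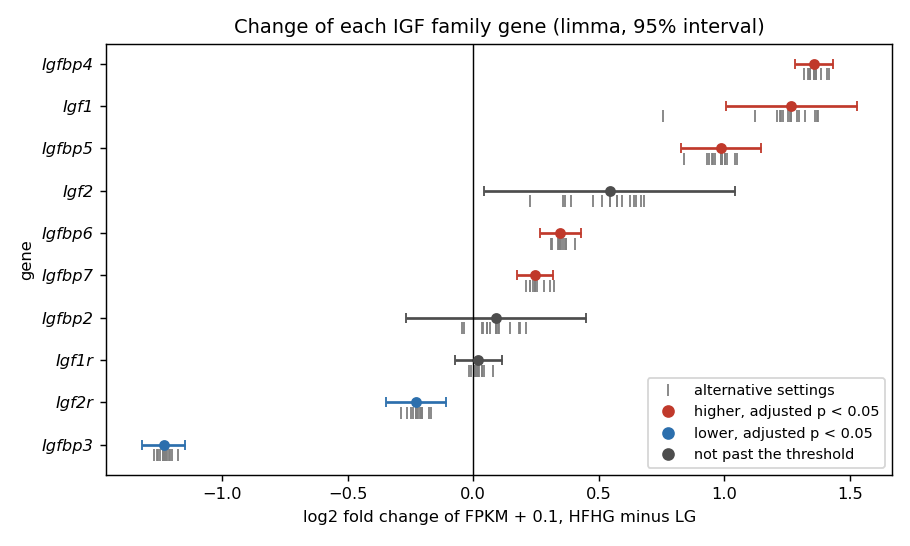
Log2 fold change of FPKM + 0.1 (HFHG minus LG) of each IGF family gene with its 95% interval from limma. Red points were higher, blue points lower and grey points not past an adjusted p of 0.05, and the short grey lines show the same value under the alternative settings, where Igf1 reaches down to 0.76 and Igf2 down to 0.23.

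Among the ligands, Igf1 rose in HFHG. Igf1 (NCBI Gene 16000, chr10:87858265-87937042, plus strand) had 1.87, 1.91, 2.07 and 2.21 FPKM in HFHG replicates 1 to 4 and 0.987, 0.676, 0.769 and 0.706 FPKM in LG replicates 1 to 4. Every HFHG library was above every LG library, although the level was low in both media. The mean was 2.01 ± 0.155 FPKM in HFHG and 0.785 ± 0.140 FPKM in LG (SD, n = 4), a ratio of 2.57. In limma the log2 fold change was 1.27 (SE 0.120, adjusted p = 1.14e-06), resting on 580 to 693 reads per HFHG library and 211 to 291 per LG library. On the log2(FPKM + 1) scale the change was 0.76. The summed macrophage markers fell while Igf1 rose, and their part was not tested.

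Igf2, the ligand known for growth before birth, was the lowest of the family and did not pass the threshold. Igf2 (NCBI Gene 16002, chr7:142650766-142666816, minus strand) had 0.775, 0.548, 0.954 and 0.476 FPKM in HFHG and 0.460, 0.583, 0.457 and 0.258 FPKM in LG. The groups overlapped, with LG replicate 2 above HFHG replicates 2 and 4. This gave a log2 fold change of 0.54 with a 95% interval from 0.04 to 1.04 (limma, unadjusted p = 0.0357, adjusted p = 0.0544). It rested on 87 to 172 reads in HFHG and 46 to 106 in LG, and Igf2 passed the filter with the smallest number of libraries allowed, 3 of HFHG and 1 of LG. In 6 of 17 alternative settings it was called higher, among them those without HFHG replicate 2, HFHG replicate 4 or LG replicate 2 (adjusted p = 0.0496, 0.0243 and 0.0289), and over all 17 the adjusted p ran from 0.0162 to 0.181. Without LG replicate 4 the log2 fold change was 0.36 (adjusted p = 0.1599). The sum of Igf1 and Igf2 was 2.70 ± 0.236 FPKM in HFHG and 1.22 ± 0.199 FPKM in LG, and its libraries did not overlap.

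The receptors moved little. Igf1r (NCBI Gene 16001, chr7:67952827-68233668, plus strand), which encodes the signalling receptor, had 11.6, 12.1, 12.3 and 12.4 FPKM in HFHG and 12.3, 11.96, 12.3 and 11.2 FPKM in LG. The libraries of the media were intermixed. Its log2 fold change was 0.02 with a 95% interval from -0.07 to 0.12 (limma adjusted p = 0.694), on at least 5180 reads per library. Its sign turned under median-ratio scaling (-0.02) and without LG replicate 4 (-0.01).

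Igf2r was lower in HFHG by a small amount. Igf2r (NCBI Gene 16004, chr17:12682406-12769664, minus strand), which encodes the scavenging receptor, had 29.9, 32.2, 31.0 and 32.8 FPKM in HFHG and 38.6, 38.8, 38.0 and 32.5 FPKM in LG. LG replicates 1 to 3 lay above all HFHG libraries, and LG replicate 4 lay within their range. The log2 fold change was -0.23 (SE 0.0541, adjusted p = 0.00258), and without LG replicate 4 it was -0.29 (adjusted p = 2.97e-05). At a recovered length of 8929 bases Igf2r is among the long genes that were low in LG replicate 4, and the part of that in its value was not tested. The ratio of Igf2r to Igf1r, which compares the receptors within a library, was 2.52 to 2.67 in HFHG and 2.90 to 3.24 in LG, without overlap.

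Igfbp4 rose at a high level, by about as much as Igf1. Its protein is a binding protein that in general restrains IGF action and that the protease pappalysin 1 cleaves. Igfbp4 (NCBI Gene 16010, chr11:99041244-99054392, plus strand) had 81.9, 84.8, 81.4 and 80.5 FPKM in HFHG and 30.8, 32.6, 31.0 and 33.9 FPKM in LG. The groups were far apart and each was narrow. The mean was 82.1 ± 1.89 FPKM in HFHG and 32.0 ± 1.48 FPKM in LG (SD, n = 4), and the log2 fold change was 1.36 (SE 0.0350, limma adjusted p = 5.68e-12). Over all 18 alternative settings it lay between 1.32 and 1.42, and the value of Igf1 was the larger with a pseudocount of 0.01, with voom and without LG replicate 1.

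Igfbp3 fell. It encodes the main carrier of IGFs in blood, which also acts on cells by itself. Igfbp3 (NCBI Gene 16009, chr11:7206086-7213923, minus strand) had 21.5, 19.5, 21.6 and 19.7 FPKM in HFHG and 49.5, 46.9, 48.2 and 49.3 FPKM in LG. All HFHG libraries were under all LG libraries, and the LG mean was 2.36 times the HFHG mean. On the log2 scale the fold change was -1.23 (SE 0.0399, adjusted p = 4.38e-11), and it lay between -1.27 and -1.17 over the 18 alternative settings. The ratio of Igfbp4 to Igfbp3 within a library was 4.001 ± 0.267 in HFHG and 0.661 ± 0.0352 in LG (SD, n = 4), so the more abundant transcript of the pair changed from Igfbp3 to Igfbp4.

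Igfbp5, a binding protein of bone and muscle that attaches to extracellular matrix, rose at a lower level. Igfbp5 (NCBI Gene 16011, chr1:72857932-72874884, minus strand) had 6.38, 7.24, 8.04 and 7.62 FPKM in HFHG and 3.65, 3.82, 3.68 and 3.39 FPKM in LG. The HFHG libraries varied more than the LG libraries but did not reach down to them. Igfbp5 had a log2 fold change of 0.99 (SE 0.0732, adjusted p = 1.13e-07), just under a value of 1, which it passed in 5 of 18 alternative settings, at the same FPKM sum (1.04), without HFHG replicate 1 (1.05), without LG replicate 2 (1.0095), with a pseudocount of 0.01 (1.003) and with voom (1.003).

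Igfbp2, whose gene lies tail to tail with Igfbp5 on chromosome 1 with 5457 bases between them, showed no such rise. Igfbp2 (NCBI Gene 16008, chr1:72824503-72852474, plus strand) had 1.80, 1.28, 1.76 and 1.89 FPKM in HFHG and 1.39, 1.15, 1.90 and 1.93 FPKM in LG. The groups overlapped almost fully. Its log2 fold change was 0.09 with a 95% interval from -0.27 to 0.45 (limma adjusted p = 0.644), and 72 to 119 reads per library stood behind it. The change seen for Igfbp6 lies inside this interval. The coefficient of variation of Igfbp2 was 16.3% in HFHG and 24.1% in LG, against 9.74% and 10.2% from counting alone. The sign turned under quantile normalization (-0.04) and without LG replicate 2 (-0.04).

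Igfbp6, a binding protein with a preference for IGF2, rose modestly. Igfbp6 (NCBI Gene 16012, chr15:102144362-102149511, plus strand) had 70.3, 67.7, 69.6 and 70.1 FPKM in HFHG and 56.8, 53.6, 50.8 and 57.3 FPKM in LG. The groups did not overlap. In the same fit the log2 fold change was 0.35 (SE 0.0376, adjusted p = 4.04e-06).

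Igfbp7 was by far the most abundant of the family and rose by the smallest amount among the higher genes. Igfbp7 (NCBI Gene 29817, chr5:77349240-77408041, minus strand) had 1544, 1561, 1536 and 1518 FPKM in HFHG and 1304, 1244, 1249 and 1402 FPKM in LG. It ranked 21st in HFHG and 31st in LG among all genes of the expression table. All HFHG libraries were above the LG libraries, of which LG replicate 4 was the highest. The log2 fold change was 0.25 (SE 0.0333, adjusted p = 3.09e-05), and without LG replicate 4 it was 0.28 (adjusted p = 1.45e-07). Igfbp7 overlaps Polr2b on the opposite strand, Igf2r overlaps Airn, Igf1 overlaps Igf1os and Igf2 overlaps Igf2os and Gm49394. The library kit keeps strand, but strand use in the counting is not given in the sources used here, so reads of the overlapping parts cannot be told apart. Gm49394 lies on the same strand as Igf2, and strand would not separate that pair in any case.

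The binding protein pool grew and changed in composition. The summed FPKM of Igfbp2 to Igfbp6, the high-affinity binding proteins, was 181 ± 1.21 in HFHG and 140 ± 4.52 in LG (SD, n = 4). Igfbp4 made up 45.3% of this sum in HFHG and 22.8% in LG. Igfbp3 made up 11.4% and 34.5%. Igfbp6 held a like share in both media, 38.3% and 38.9%, with overlapping libraries. Igfbp5 took 4.04% and 2.60%, and Igfbp2 took 0.930% and 1.13%. These shares rest on the gene lengths behind the FPKM, describe the members already tested and carry no test of their own. Counted as recovered reads, which are not divided by gene length, Igfbp4 took 55.0% and 26.4% and Igfbp3 took 17.1% and 49.6%, so the size of the shares depended on the scale, while each of these genes moved the same way on both.

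**Figure D3:**
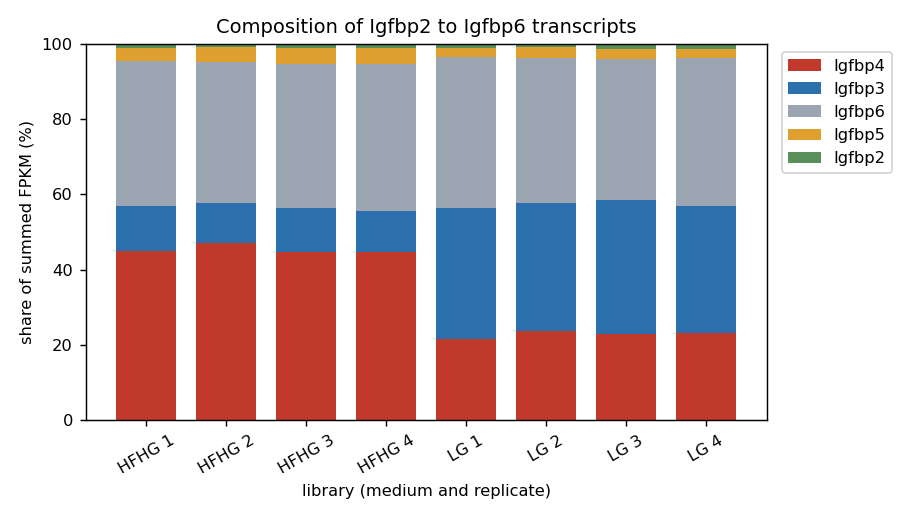
Share of each gene in the summed FPKM of Igfbp2 to Igfbp6 (percent, stacked to 100) in every library. The Igfbp4 part lies between 44.6% and 47.0% in the 4 HFHG libraries and between 21.7% and 23.6% in the 4 LG libraries, and the Igfbp3 part moves the other way.

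Set against the ligands, the binding protein transcripts were less in excess in HFHG. The sum of Igfbp2 to Igfbp6 over the sum of Igf1 and Igf2 was 60.3 to 73.5 in HFHG and 98.2 to 151 in LG, where LG replicate 4 gave the highest value and the mean without it was 106 ± 6.93 (n = 3). The ranges did not overlap. Transcript ratios say nothing of protein amounts, which were not measured in these files.

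Most of the tested genes from a list of those that control how much IGF is free were lower in HFHG. Of 11 genes listed as acting on IGF bioavailability beside the family, 7 passed the filter, of which 6 were lower, none was higher and 1, Tmem219, encoding a receptor for IGFBP3, was not called (log2 fold change 0.11, limma adjusted p = 0.227). Among all genes tested 30.8% were lower, but the list was written with earlier results of these data known, so the comparison is a description. The number of lower genes ran from 4 to 6 over the settings. The median log2 fold change of the 7 was -0.36, against 0.02 for all genes. Stc2, whose product stanniocalcin 2 inhibits pappalysins, had 16.4, 18.8, 17.2 and 17.8 FPKM in HFHG and 34.5, 34.2, 34.3 and 37.3 FPKM in LG. Its log2 fold change was -0.99 (SE 0.0454, adjusted p = 1.13e-09).

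Pappa encodes pappalysin 1, the protease that cleaves IGFBP4 and IGFBP5. It had 4.89, 5.29, 5.02 and 5.15 FPKM in HFHG and 7.76, 7.93, 7.51 and 6.21 FPKM in LG, where LG replicate 4 was the lowest of its group and still above HFHG. The log2 fold change was -0.52 (SE 0.0734, adjusted p = 4.68e-05), and without LG replicate 4 it was -0.59 (adjusted p = 1.66e-06). The protease and its inhibitor were thus lower together, while the substrate gene Igfbp4 was higher, and the ratio of Igfbp4 to Pappa was 16.1 ± 0.463 in HFHG and 4.41 ± 0.699 in LG (SD, n = 4), or 4.06 ± 0.0893 in LG without LG replicate 4 (n = 3).

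Htra1, a secreted protease that can cleave IGFBP5, fell from 130 ± 2.39 FPKM in LG to 93.0 ± 1.53 FPKM in HFHG (log2 fold change -0.48, adjusted p = 2.52e-09). The other lower genes, named after their values were seen, were Adam12, a protease of IGFBP3 and IGFBP5 (-0.36, adjusted p = 0.00474), Lrp1, an endocytic receptor that binds IGFBP3 (-0.21, adjusted p = 0.0110), and Stc1, another pappalysin inhibitor (-0.14, adjusted p = 0.0473). The call of Stc1 was lost in 8 of 18 alternative settings, with an adjusted p of up to 0.251, among them those without any 1 of HFHG replicates 1, 2 and 3 and LG replicates 1 and 3 (adjusted p = 0.131, 0.0562, 0.103, 0.151 and 0.0755), and that of Lrp1 was lost in 2, with an adjusted p of up to 0.136. Lrp1 was also low in LG replicate 4, at 192 FPKM against 233 to 241 FPKM in the other LG libraries, and without that library its log2 fold change was -0.28 (limma adjusted p = 1.15e-05).

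Igfals, Igfbpl1, Pappa2 and Igfbp1 were below the filter. Igfbp1, an insulin-responsive binding protein made mainly in liver, lies 3539 bases from Igfbp3 on chromosome 11. It had 1 read, in HFHG replicate 4, and 0 reads in the other 7 libraries. A count of 0 allows up to 3 reads, or 0.0528 to 0.0575 FPKM in these libraries, counting error only. Next to it, Igfbp3 held at least 2782 reads in every library.

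Receptor signalling genes, listed with earlier results of these data known, were mostly higher. Of 19 listed genes, 18 passed the filter, of which 13 were higher, 2 lower and 3 not called, against 34.0% higher among all genes tested, and their median log2 fold change was 0.26. The number of higher genes ran from 11 to 14 over the alternative settings. Pik3ca, named after its values were seen, lost its call in 10 of 18 settings, among them 7 of 8 fits with a library left out (all but that without LG replicate 2), with an adjusted p of up to 0.1599, and Akt2 lost it with median-ratio scaling (adjusted p = 0.0751). The largest change was in Grb14, an adaptor that binds the insulin receptor and inhibits it, with 54.5, 53.5, 52.6 and 53.8 FPKM in HFHG and 14.7, 12.7, 14.0 and 14.0 FPKM in LG. Its log2 fold change was 1.94 (SE 0.0415, limma adjusted p = 1.09e-12). Foxo1, a transcription factor that insulin and IGF signalling keeps out of the nucleus, rose from 4.33 ± 0.132 FPKM to 8.51 ± 0.248 FPKM (log2 fold change 0.96, adjusted p = 3.55e-09). Gab1, a docking protein of receptor tyrosine kinases, rose from 0.701 ± 0.0359 FPKM to 1.32 ± 0.103 FPKM (0.83, adjusted p = 1.47e-05, and 0.45 with a pseudocount of 1).

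The 2 lower genes of this list, named after their values were seen, were Grb10, an inhibitory adaptor related to Grb14 (log2 fold change -0.45, limma adjusted p = 5.28e-08), and the kinase gene Akt1 (-0.27, adjusted p = 2.85e-07). Grb10 and Grb14 therefore moved in opposite directions, and Grb14 went from the lower to the higher FPKM of the pair. The genes not called were the insulin receptor gene Insr (-0.02, adjusted p = 0.835) and the receptor substrate genes Irs1 (-0.05, adjusted p = 0.473) and Irs2 (0.14, adjusted p = 0.118). Insr had 5.22 to 6.01 FPKM in HFHG and 5.18 to 6.34 FPKM in LG, with LG replicate 4 the lowest. Without that library its log2 fold change was -0.07, and in 4 settings its sign turned.

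Genes of the growth hormone input, which drives Igf1 in many tissues, moved in both directions, at shares near those of all genes. Of 7 genes tested, 2 were higher, 2 lower and 3 not called, against 34.0% higher and 30.8% lower among all genes tested. Cish, an inhibitor that growth hormone induces, rose from 0.739 ± 0.0730 FPKM to 1.68 ± 0.158 FPKM (log2 fold change 1.09, limma adjusted p = 2.02e-06, and 0.63 with a pseudocount of 1). The growth hormone receptor gene Ghr fell from 11.4 ± 0.497 FPKM to 8.13 ± 0.160 FPKM (-0.48, adjusted p = 1.06e-06), and Socs3, an inhibitor of cytokine signalling, fell from 47.1 ± 2.19 FPKM to 35.5 ± 0.432 FPKM (-0.41, adjusted p = 4.04e-07). The other higher gene, named after its values were seen, was Stat5a (0.14, adjusted p = 0.0423), whose call was lost in 10 of 18 settings with an adjusted p of up to 0.269. Leaving out LG replicate 1, LG replicate 3 or any HFHG replicate lost it, with an adjusted p from 0.0550 to 0.118. Jak2, Stat5b and Socs2 were not called.

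Of 12 listed genes that bind Igf2 RNA or belong to the imprinted growth genes, 10 were found by symbol, and 5 of these passed the filter. Of the 5, 2 were higher, 2 lower and 1 not called, shares like those of all genes tested (34.0% higher, 30.8% lower). Peg3 passed the filter through the HFHG libraries alone, since its LG values of 0.331 to 0.389 FPKM were all under it, so its place among the higher genes is partly set by the filter. Peg3, an imprinted zinc finger gene, had 0.354 ± 0.0246 FPKM in LG and 0.803 ± 0.0590 FPKM in HFHG (log2 fold change 0.99, limma adjusted p = 1.75e-05, and 0.41 with a pseudocount of 1). Cdkn1c, an imprinted cell cycle inhibitor, had 2.37, 1.5002, 2.19 and 2.78 FPKM in HFHG and 1.68, 1.66, 1.53 and 1.39 FPKM in LG, where HFHG replicate 2 fell within the LG range. Its log2 fold change was 0.44 (adjusted p = 0.0208), and the call was lost in 5 of 18 settings, among them those without HFHG replicate 1, HFHG replicate 4 or LG replicate 4 (adjusted p = 0.0563, 0.0670 and 0.0571).

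Igf2bp2, an RNA-binding protein of Igf2 mRNA, fell from 23.0 ± 0.452 FPKM to 18.2 ± 0.332 FPKM (log2 fold change -0.34, limma adjusted p = 1.34e-06). Igf2bp3 had 1.71 to 2.19 FPKM in HFHG and 1.82 to 2.04 FPKM in LG and was not called (0.03, adjusted p = 0.795). Igf2bp1 was below the filter at 0.411 to 0.502 FPKM in HFHG and 0.388 to 0.532 FPKM in LG. The other lower gene, named after its values were seen, was Plagl1, an imprinted transcription factor (-0.31, adjusted p = 0.0365, and -0.17 with a pseudocount of 1), and its call was lost in 6 of 18 settings, among them those without HFHG replicate 1, HFHG replicate 4, LG replicate 2 or LG replicate 4 (adjusted p = 0.0787, 0.108, 0.101 and 0.0554).

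**Figure D4:**
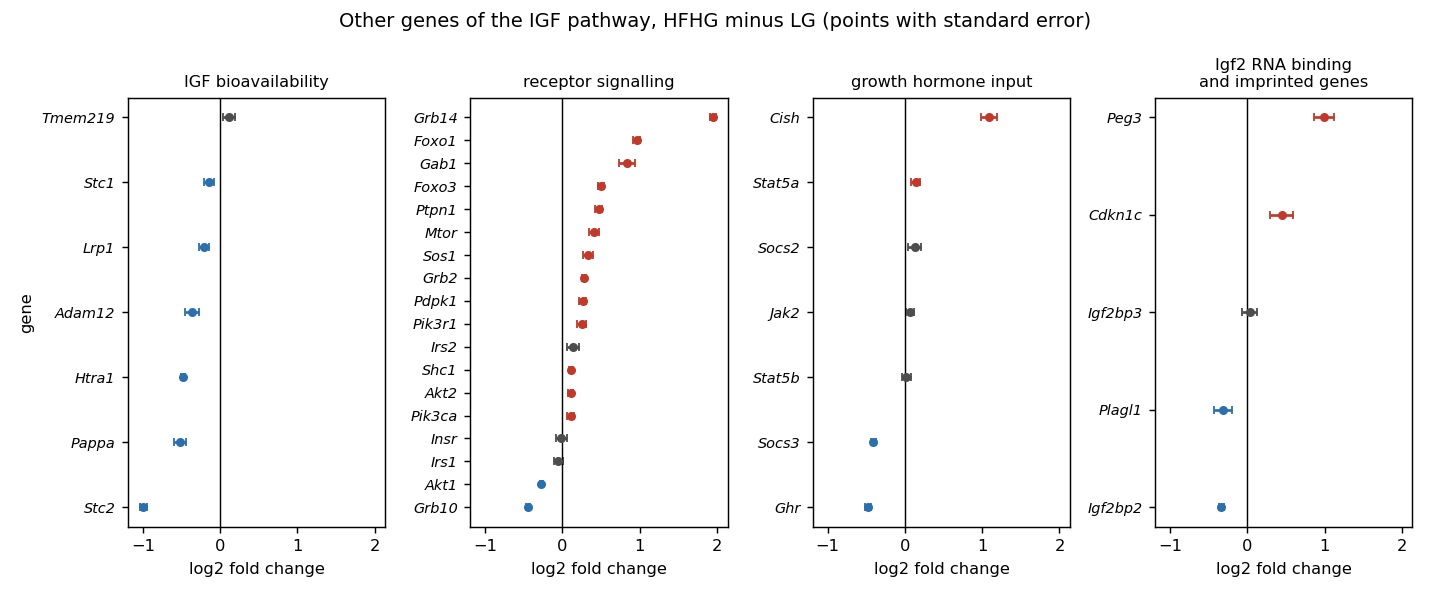
Log2 fold change of FPKM + 0.1 (HFHG minus LG) with its standard error for the tested genes of 4 lists of the IGF pathway. Red points were higher and blue points lower at an adjusted p below 0.05, and grey points were not called. The bioavailability list lies to the left of 0 except Tmem219, and Grb14 lies furthest to the right at 1.94.

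The genes whose pattern over the 8 libraries was nearest to the members with the largest changes were named by the root mean square (RMS) difference of log2(FPKM + 0.1) around each gene's mean, among 10671 genes. For Igfbp4 these were Htra3, a secreted protease gene, at an RMS difference of 0.0416, Hspb7 at 0.0426 and Dkk3 at 0.0472. For Igf1 they were Glt8d2 at 0.105, Cyp39a1 at 0.111 and Col24a1, a fibrillar collagen gene, at 0.114. All share the 8 libraries and their contrast, so the likeness is a description. Col24a1 had 1.77 FPKM in HFHG and 0.611 FPKM in LG, close to the levels of Igf1, and Hspb7 had 95.1 and 37.9 FPKM, close to those of Igfbp4.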

How the data were processed

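RNA of 8 TSC libraries (4 HFHG, 4 LG) was sequenced after a stranded mRNA kit. The authors deposited FPKM per gene and library, without pooling. The submitters' processing notes name HISAT2 2.1.0 and mm10, and the counting program, annotation and filters are not given in the sources used here. Annotation columns of the table served only for gene numbers.

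Groups were taken from the labels. Genes with FPKM of at least 0.5 in at least 4 libraries were tested with limma 3.58.1 (R 4.3.3) on log2(FPKM + 0.1), with an intensity trend, no covariates, and Benjamini-Hochberg adjustment. Fold changes on this scale understate the change of low genes. Whole reads were recovered for 19300 of 19301 genes (within 0.01 read), so the depth came to be known, and served for counts and a voom alternative. The recovery and the fit were tested on simulated data. Libraries of the same replicate number showed no shared deviation from their group means (correlations from -0.07 to -0.006), which cannot show whether they came from one preparation. Gene positions are from GENCODE M21 (GRCm38, which is mm10), and promoters from RefSeq, matched for 10 of 10 members.

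The members, gene lists and markers were chosen with earlier results of these data known. All members were named, the 3 called genes of each list with the largest change, Igfbp1, Insr and the Igf2bp genes, and the 3 genes of nearest pattern with a mean of at least 1 FPKM. H19 and Meg3 were not found by symbol among the genes of the expression table, so they were not analysed here. Pseudocounts, filters, scalings, robust fitting, the replicate block and leaving out each library were tried. The figures were drawn with matplotlib 3.10.9.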

Additional observations from a re-analysis of the deposited data

Results flagged for a closer look

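Among 50 groups of 4 libraries checked for a library far from the other 3, of which chance marks about 1 in 20, there were 2 such values, both in LG replicate 4. The FPKM of Igf2r was 32.5 in LG replicate 4 and 38.0 to 38.8 in the other LG libraries. The ratio of Igfbp4 to Pappa was 5.46 in LG replicate 4 and 3.96 to 4.12 in the other LG libraries. LG replicate 4 had lower values of long genes, as described for the libraries, and the part of this in either value was not tested.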

How the results depend on the processing

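Of 179 values of the log2 fold change of the 10 family genes under 18 alternative settings, 169 kept their direction and their side of the threshold, 6 values, all of Igf2, passed the threshold, and 4 turned in sign without a call. Of 665 such values of the listed genes, 607 kept both, 42 lost the call, 2 gained it and 14 turned in sign. The family counts stayed at 5 or 6 higher and 2 lower. The number of family genes with a log2 fold change above 1 was 1 in place of 2 with a pseudocount of 1, and 3 in 5 settings in which Igfbp5 passed that value. The number of bioavailability genes called higher was 1 without a filter on low values. The number of growth hormone input genes called higher was 1 with median-ratio scaling, quantile normalization, the replicate block and voom, and 1 to 2 with a library left out, where Stat5a lost its call without LG replicates 1 or 3 or any HFHG replicate. In the list of Igf2 RNA binding and imprinted genes, 1 was higher without a filter, with FPKM of at least 1 and with quantile normalization, 1 was lower at the same FPKM sum, and each count was 1 to 2 with a library left out. The sign turned, with no call, for Igf1r (-0.016 with median-ratio scaling, -0.0080 to 0.041 with a library left out), Igfbp2 (-0.038 with quantile normalization, -0.044 to 0.21 with a library left out), Igf2bp3 (-0.0051 with median-ratio scaling, -0.089 with quantile normalization, -0.026 to 0.087 with a library left out), Insr (0.040 at the same FPKM sum, -0.073 to 0.027 with a library left out), Irs1 (0.0058 at the same FPKM sum), Jak2 (-0.0083 with quantile normalization) and Stat5b (-0.016 with median-ratio scaling, -0.050 with quantile normalization, -0.016 to 0.073 with a library left out). The cause was not tested.

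With the replicate block the family counts were 6 higher and 2 lower, and Igf2 was called (adjusted p = 0.0253). Whether the replicate numbers pair the samples is not given in the sources used here, and same-numbered libraries showed no shared deviation. Over all genes 3841 were higher and 3501 lower with the block. A filter of FPKM of at least 1 left Igf2 untested. The shares of recovered reads differ from the shares of FPKM by their construction, which leaves out gene length. Igf2 and Igfbp2 had the fewest reads, with at most 172 and 119 in a library, and their spread between libraries was above that of counting. The part of depth in their precision was not tested.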

Other observations

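The spread between replicates was set against the spread that counting alone gives. The coefficient of variation of Igf2 was 31.8% in HFHG and 30.6% in LG, where counting alone gives 8.94% and 11.3%. For Igfbp6 in HFHG it was 1.76%, the same as counting alone gives. For Igfbp7 in LG it was 5.63% against 0.423% from counting, and for Igf2r in LG 8.10% against 0.925%, and LG replicate 4 was the highest library for Igfbp7 and the lowest for Igf2r.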
